A study of Mus musculus with 6 samples.

Results

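The 10 genes described here are the Jun proteins (Jun, Junb, Jund), the Fos proteins (Fos, Fosl1), Atf3, Egr1, Ier2, Ier3 and Myc, a set of AP-1 and immediate early genes. They were taken as every probe set whose only gene symbol in the platform annotation is one of these names, which gave 13 probe sets for the 10 genes, of 45037 probe sets and 18193 genes on the array. The samples were cultures of the mouse embryonic stem cell line J1, kept on gelatin, in 15% serum with leukemia inhibitory factor at 1000 U/ml, a cytokine that holds off differentiation. The groups were shJmjd1c#3 and shJmjd1c#4, a pair of short hairpin RNAs against the histone demethylase family gene Jmjd1c, and shNT, a non-targeting hairpin, each on 2 Affymetrix Mouse Genome 430 2.0 arrays. All groups were infected with the lentiviral vector pLKO.1, were kept in puromycin at 1.5 ug/ml for 2 days starting 1 day after infection, and were then replated and grown for 4 days. The labels mention no picking of clones from the resistant cells. Cells of every group were lifted with trypsin, washed and put on ice in Trizol before RNA was extracted.

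AP-1 is a dimer of basic leucine zipper proteins: Jun proteins pair with each other, with Fos proteins or with ATF proteins such as Atf3, and bind short DNA sites in the control regions of growth, stress and matrix genes. Immediate early genes are transcribed within minutes of a signal, without new protein synthesis, largely through MAP kinases acting on serum response factor (SRF), its ternary complex partners and CREB or ATF proteins. Serum, growth factors, ultraviolet light and the handling of cells, enzymatic detachment included, are known to induce them. In embryonic stem cells the FGF to ERK route keeps Egr1 and other early genes on, and Myc, together with its relative Mycn, takes part in growth and self-renewal.

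The promoter windows of Jun, Junb, Fos and Atf3 are shown because these genes belong to 1 pathway and their windows hold the motif matches found. The sequences are from RefSeq on build GRCm38.p6 and run from 250 bases before to 50 bases after the annotated start, at chr4:95052173-95052472 on the minus strand for Jun, chr8:84978699-84978998 on the minus strand for Junb, chr12:85473640-85473939 on the plus strand for Fos and chr1:191183284-191183583 on the minus strand for Atf3. Capitals mark a match to 1 of the 7 motifs searched on both strands.
Jun: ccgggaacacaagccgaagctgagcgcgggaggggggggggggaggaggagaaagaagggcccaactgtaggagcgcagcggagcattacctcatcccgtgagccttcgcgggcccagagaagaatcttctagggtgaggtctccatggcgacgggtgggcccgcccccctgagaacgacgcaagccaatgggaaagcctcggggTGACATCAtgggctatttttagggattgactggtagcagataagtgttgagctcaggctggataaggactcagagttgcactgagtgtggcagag
Junb: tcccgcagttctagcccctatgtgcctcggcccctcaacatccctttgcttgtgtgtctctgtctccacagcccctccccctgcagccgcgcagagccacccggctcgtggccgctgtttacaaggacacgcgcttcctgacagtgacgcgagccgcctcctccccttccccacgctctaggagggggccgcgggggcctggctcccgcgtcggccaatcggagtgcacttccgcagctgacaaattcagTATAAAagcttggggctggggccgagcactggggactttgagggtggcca
Fos: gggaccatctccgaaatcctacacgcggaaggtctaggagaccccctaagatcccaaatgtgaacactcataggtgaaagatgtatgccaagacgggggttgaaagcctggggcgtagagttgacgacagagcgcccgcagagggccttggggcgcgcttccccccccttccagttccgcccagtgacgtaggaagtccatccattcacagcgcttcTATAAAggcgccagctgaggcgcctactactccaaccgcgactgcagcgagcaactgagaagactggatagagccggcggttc
Atf3: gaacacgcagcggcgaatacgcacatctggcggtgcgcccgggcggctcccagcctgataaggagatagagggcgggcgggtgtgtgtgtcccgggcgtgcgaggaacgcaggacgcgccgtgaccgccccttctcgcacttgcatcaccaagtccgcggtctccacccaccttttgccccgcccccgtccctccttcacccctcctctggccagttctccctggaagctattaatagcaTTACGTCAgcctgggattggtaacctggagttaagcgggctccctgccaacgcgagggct

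The motifs were the AP-1 site TGANTCA, a CRE-type site TNACGTCA bound by CREB and ATF proteins, the Jun self-site TGACATCA known from the human JUN promoter, the CArG box bound by SRF, the EGR site GCGNGGGCG, the E-box CACGTG bound by Myc and Max, and the TATA box TATAAA. No match of 1 motif overlapped a match of another. Windows of 6 members were searched, those of Jun, Junb, Jund, Fos, Ier3 and Atf3. The Jun window held the self-site from -45 to -38, with the start base counted as 0, and 3.619% of all 32851 windows of the same length held that motif. The Atf3 window held a CRE-type site from -10 to -3, against 2.931% of all windows. The TATA box was matched in Fos from -33 to -28 and in Junb from 0 to 5, against 13.62% of all windows. The AP-1 site, the CArG box, the EGR site and the E-box had 0 matches in the 6 windows, against 7.808%, 1.629%, 5.552% and 7.15% of all windows. A match describes letters and is not a measured binding site. Sites beyond these windows were not searched, so 0 matches does not mean that a gene lacks the site.

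**Figure D1:**
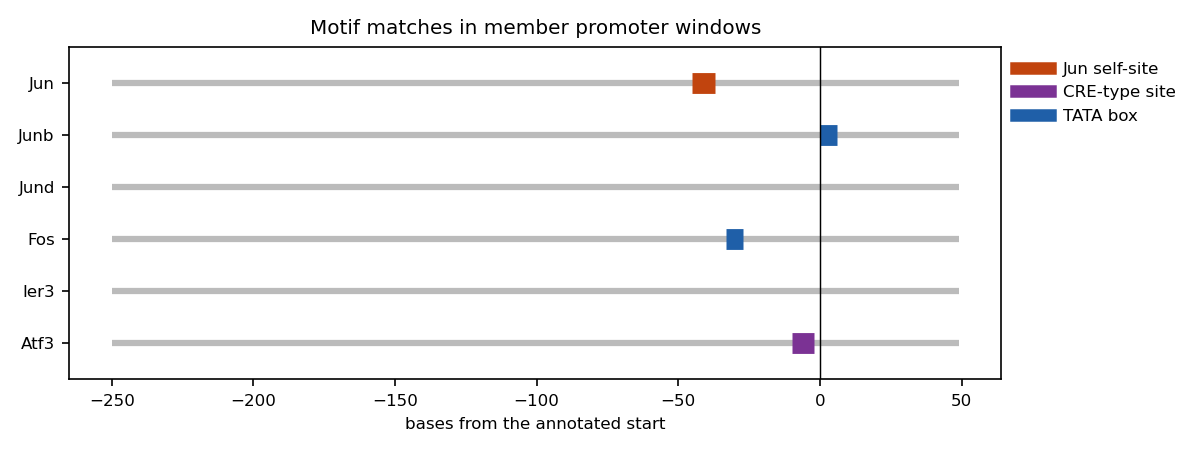
Motif matches in the promoter windows of the 6 members searched. Grey bars run from 250 bases before to 50 bases after the annotated start (horizontal axis, bases), and coloured blocks are matches: the Jun self-site lies 45 to 38 bases before the Jun start, the CRE-type site 10 to 3 bases before the Atf3 start, and Jund and Ier3 have no match.

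Signals are on the linear MAS5 scale, and precision is limited by the number of arrays, 2 in each group. Median signals were 69.3 to 81.3 over the 6 arrays, and pairs of arrays correlated at 0.962 to 0.976 across probe sets. All 12 pluripotency markers examined had a mean signal above 100, and their summed signal was 88661 to 90438 in shJmjd1c#3, 89235 to 91528 in shJmjd1c#4 and 99426 to 111464 in shNT cells. Markers of feeder fibroblasts, 22 on the array, summed to 3861 to 4011 in shJmjd1c#3, 4798 to 4850 in shJmjd1c#4 and 3140 to 3292 in shNT cells. Of the 22, 7 had a mean signal under 40, and in 6 all 4 knockdown arrays lay above both controls while none lay below. Over all probe sets 9.66% lay above in this way and 7.62% below. The 3' probe set for 18S RNA, a control on the array, read 6177 and 5333 in shJmjd1c#3, 3712 and 5013 in shJmjd1c#4, and 8140 and 6875 in shNT cells. Actb signal at the 3' end over that at the 5' end, which reports on RNA integrity, was 2.26 and 2.40 in shJmjd1c#3, 2.80 and 2.81 in shJmjd1c#4, and 2.70 and 2.77 in shNT cells. The part of these differences in the results below was not tested. The targeted gene was lower on its brightest probe set, 1426900_at, at 4763 ± 313 in shJmjd1c#3 and 3744 ± 666 in shJmjd1c#4, against 5788 ± 385 in shNT cells (SD, n = 2 each), without passing the test (log2 -0.46, adjusted p = 0.358 by limma). Its other probe sets, 1439998_at and 1448049_at, were higher in all 4 knockdown arrays than in both controls (log2 0.73 and 0.90, the second past the test with the replicate block only, adjusted p = 0.0127 by limma), so "knockdown" is used by the labels.

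The first question was whether AP-1 and immediate early genes differed between Jmjd1c knockdown cells and control cells. Jun was higher in the knockdown cells, and no other member passed the test in the mean of both hairpins (the knockdown mean) against shNT. The Jun call was narrow (adjusted p = 0.0482 by limma) and was made in neither hairpin alone in this fit. It was lost in several of the alternatives given below. Jun encodes c-Jun, the AP-1 subunit that both binds DNA and activates transcription as a dimer with itself or with Fos. Atf3 was higher in all 4 knockdown arrays without passing, Egr1 and Myc were above both controls in shJmjd1c#3 but not in shJmjd1c#4, and Fos, Junb, Jund and Ier3 showed control arrays on either side of most knockdown arrays. Of the 10 members, 9 passed the filter on dim probe sets and were tested; Fosl1 did not pass it. Of the 9, 1 was called higher and 0 lower by limma, and 2 had an unadjusted p under 0.05, while 0.725% of the 12684 genes tested were called (0.56% higher and 0.166% lower) and 12.3% had an unadjusted p under 0.05. With the replicate number as a block, 1 of 9 was called, against 5.6% of all genes. All 4 knockdown arrays lay above both controls in 2 members, Jun and Atf3, against 11.2% of all genes tested, and below both in 1, Ier2, against 9.54%. Over the 13 probe sets, 4 lay above both controls in all knockdown arrays, against 9.66% of all probe sets, and 1 below, against 7.62%. The median log2 difference of the 9 was 0.19, against 0.01 for all genes tested; the filter left out the member that was dimmest in control cells, and over all 10, without a filter, the median was 0.21, against 0.02 for all probe sets. Since these are whole cultures, a change in the share of cells that express a gene and a change of its RNA per cell cannot be told apart.

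**Figure D2:**
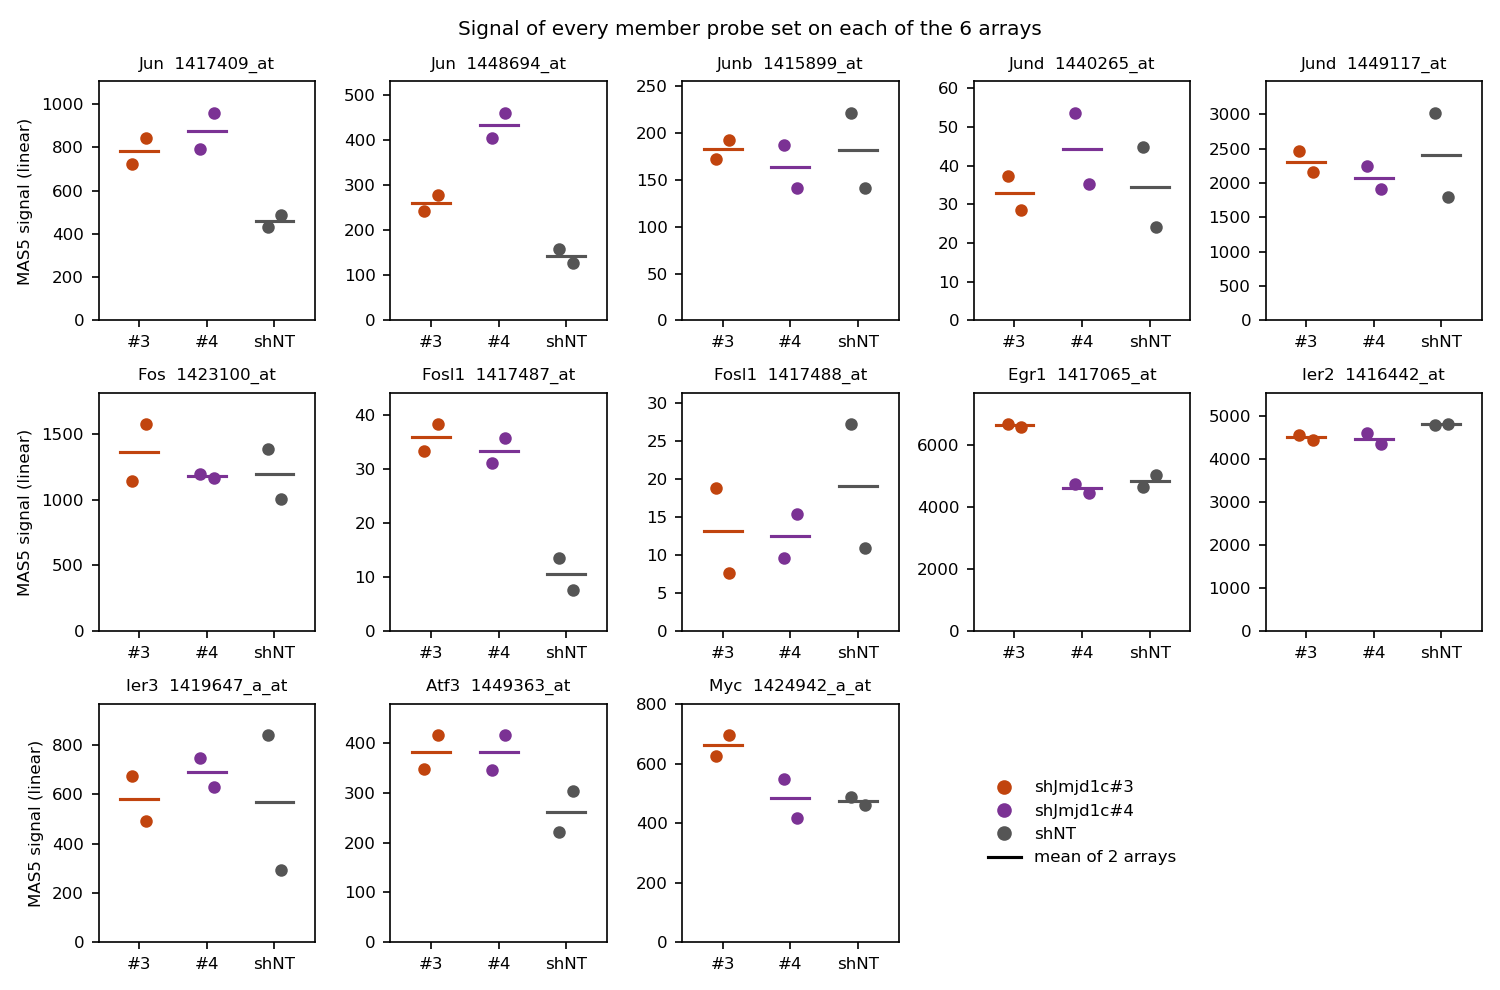
Linear MAS5 signal (vertical axes, each from 0) of the 13 member probe sets on every array, in shJmjd1c#3, shJmjd1c#4 and shNT cells; points are arrays and bars the mean of 2 arrays. Both Jun probe sets lie above the controls in all 4 knockdown arrays, Egr1 is high in shJmjd1c#3 only, and the shNT arrays of Ier3, at 840 and 293, lie on either side of every knockdown array.

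Jun was measured by 2 probe sets. Its brighter one, 1417409_at, read 724 and 845 in shJmjd1c#3 and 795 and 961 in shJmjd1c#4, against 430 and 486 in shNT cells. All 4 knockdown arrays were above both controls and the groups did not overlap. The mean was 831 ± 99.7 over the knockdown arrays (SD, n = 4), against 458 ± 39.4 in shNT cells (SD, n = 2), a log2 difference of 0.83 (SE 0.15, 95% interval 0.50 to 1.17, adjusted p = 0.0482 by limma). By hairpin the log2 differences were 0.75 (SE 0.17, adjusted p = 0.183 by limma) in shJmjd1c#3 and 0.91 (SE 0.17, adjusted p = 0.072) in shJmjd1c#4. With the replicate number as a block these passed, at adjusted p = 0.0116 and 0.00313, as did the knockdown mean at 0.00187.

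The second Jun probe set, 1448694_at, read 243 and 279 in shJmjd1c#3 and 405 and 461 in shJmjd1c#4, against 158 and 126 in shNT cells. The groups again did not overlap, and here the shJmjd1c#4 arrays also lay above both shJmjd1c#3 arrays. Its log2 difference was 1.16 (SE 0.19) in the knockdown mean, 0.81 (SE 0.22) in shJmjd1c#3 and 1.51 (SE 0.22) in shJmjd1c#4. In the fit over all 45037 probe sets, with no filter, neither Jun probe set passed (adjusted p = 0.126 for 1417409_at and 0.114 for 1448694_at by limma), and both passed with the replicate block (0.00895 and 0.0181); 0.0422% and 1.03% of all probe sets passed in these fits. Jun lies at chr4:95049036-95052222, and gene positions given here are those of RefSeq on GRCm38.p6.

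The Jun call depended on each array. The log2 difference was 0.89 without shJmjd1c#3 replicate 1, 0.78 without its replicate 2, 0.90 without shJmjd1c#4 replicate 1, 0.76 without its replicate 2, 0.75 without shNT replicate 1 and 0.92 without shNT replicate 2. The adjusted p by limma in these 6 fits was 0.0897 to 0.170, so the size was kept within 0.75 to 0.92 and the call was lost each time. It was also lost at adjusted p = 0.0634 with quantile normalization, 0.0943 with median centring and 0.161 without an intensity trend.

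Junb and Jund encode the other Jun proteins, which activate transcription less than c-Jun in many settings. Junb (chr8:84976909-84978748), probe set 1415899_at, read 173 and 193 in shJmjd1c#3 and 187 and 141 in shJmjd1c#4, against 222 and 142 in shNT cells. The knockdown arrays lay at or between the controls, apart from shJmjd1c#4 replicate 2, which was just below both. In log2 it differed by -0.04 (SE 0.24, 95% interval -0.59 to 0.51, adjusted p = 0.968 by limma). Jund (chr8:70697739-70700616), probe set 1449117_at, read 2462 and 2166 in shJmjd1c#3 and 2246 and 1915 in shJmjd1c#4, against 3026 and 1800 in shNT cells, so every knockdown array lay between the controls. Its log2 difference was -0.09 (95% interval -0.52 to 0.34, adjusted p = 0.895 by limma). The other Jund probe set, 1440265_at, was dim at 24.1 to 53.7 over the 6 arrays and overlapped between groups. Within the Jun family, then, Jun passed the test and the intervals of Junb and Jund included 0; the differences between the genes were not tested.

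Fos (chr12:85473890-85477274) encodes c-Fos, which binds DNA only together with a Jun protein. Probe set 1423100_at read 1142 and 1575 in shJmjd1c#3 and 1196 and 1162 in shJmjd1c#4, against 1387 and 1004 in shNT cells. The groups overlapped, with the highest value in shJmjd1c#3 replicate 2 and the lowest in shNT replicate 2. Its log2 difference was 0.09 (SE 0.17, 95% interval -0.30 to 0.48, adjusted p = 0.886 by limma).

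Fosl1 (chr19:5447698-5455938) encodes Fra-1, a Fos protein typical of mesenchymal and invasive cells. Its probe set 1417487_at read 33.2 and 38.3 in shJmjd1c#3 and 31.0 and 35.6 in shJmjd1c#4, against 13.6 and 7.64 in shNT cells. All 4 knockdown arrays were above both controls, but every value lay below the filter signal of 40.12. Without a filter the log2 difference was 0.93 (SE 0.34, adjusted p = 0.481 by limma). The other probe set, 1417488_at, read 18.9 and 7.69 in shJmjd1c#3 and 9.65 and 15.4 in shJmjd1c#4, against 27.3 and 11.0 in shNT cells, and had the opposite sign (log2 -0.26, SE 0.36).

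Atf3 (chr1:191170296-191183333) encodes a stress-induced partner of Jun proteins that often represses transcription. It read 346 and 415 in shJmjd1c#3 and 345 and 416 in shJmjd1c#4, against 221 and 303 in shNT cells. All 4 knockdown arrays were above both controls, and replicate 2 was the higher array in each of the 3 groups. The log2 difference was 0.52 in the knockdown mean (SE 0.19, 95% interval 0.08 to 0.96, adjusted p = 0.314 by limma), with 0.52 (SE 0.22) in shJmjd1c#3 and 0.52 (SE 0.22) in shJmjd1c#4. With the replicate block the adjusted p was 0.0648. Without shNT replicate 1 the log2 difference was 0.31 and without shNT replicate 2 it was 0.74.

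Egr1, a zinc finger factor and a direct target of the ERK route, read 6688 and 6575 in shJmjd1c#3 and 4755 and 4457 in shJmjd1c#4, against 4658 and 5039 in shNT cells. Both shJmjd1c#3 arrays were above all other arrays, while the shJmjd1c#4 arrays overlapped the controls. The log2 difference was 0.45 in shJmjd1c#3 (SE 0.11, adjusted p = 0.211 by limma, and 0.020 with the replicate block) and -0.07 in shJmjd1c#4 (SE 0.11, adjusted p = 0.857). In the knockdown mean it was 0.19 (SE 0.09, 95% interval -0.02 to 0.40, adjusted p = 0.463 by limma).

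Myc (chr15:61985341-61990361) encodes c-Myc, a growth regulator whose transcription follows mitogens and, in these cells, leukemia inhibitory factor. It read 626 and 698 in shJmjd1c#3 and 549 and 419 in shJmjd1c#4, against 489 and 461 in shNT cells. The shJmjd1c#3 arrays were above both controls, and the shJmjd1c#4 arrays lay on either side of them. The log2 difference was 0.46 in shJmjd1c#3 (SE 0.18, adjusted p = 0.460 by limma), 0.01 in shJmjd1c#4 (SE 0.18, adjusted p = 0.987) and 0.24 in the knockdown mean (SE 0.16, adjusted p = 0.609). Without shJmjd1c#4 replicate 1 the knockdown mean was 0.14, and over the 6 fits that leave out 1 array it was 0.14 to 0.33.

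Ier2 (chr8:84661331-84662852) encodes a small nuclear protein of the early response. It read 4566 and 4433 in shJmjd1c#3 and 4589 and 4338 in shJmjd1c#4, against 4779 and 4817 in shNT cells. Each knockdown array was below both controls by a small margin. This came to a log2 difference of -0.10 (SE 0.09, 95% interval -0.30 to 0.11, adjusted p = 0.735 by limma).

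Ier3 (chr17:35821713-35822911), an early gene linked to cell survival, read 673 and 489 in shJmjd1c#3 and 747 and 628 in shJmjd1c#4, against 840 and 293 in shNT cells. Every knockdown array lay between the controls. Its log2 difference was 0.32 (SE 0.34, 95% interval -0.46 to 1.10, adjusted p = 0.785 by limma), and it was -0.41 without shNT replicate 2 and 1.06 without shNT replicate 1.

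The hairpins were then compared with each other and with shNT singly; both share the shNT arrays. No member passed by limma in shJmjd1c#3 or in shJmjd1c#4 without the block, where 0.071% and 0.363% of all genes passed, and 4 and 2 of the 9 members had an unadjusted p under 0.05, beside 9.74% and 12.1% of all genes. With the replicate block Jun and Egr1 passed in shJmjd1c#3, against 3.43% of all genes, and Jun passed in shJmjd1c#4, against 4.9%. Both arrays lay above both controls for Jun, Egr1, Atf3 and Myc in shJmjd1c#3, 4 of 9 members against 21.1% of all genes, and for Jun and Atf3 in shJmjd1c#4, against 21%. Ier2 was the 1 member below both controls in each, against 19.2% and 17.8%. The median log2 difference of the 9 was 0.20 in shJmjd1c#3 and -0.00206 in shJmjd1c#4.

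Between the hairpins, shJmjd1c#4 minus shJmjd1c#3, 0 members and 0% of all genes passed by limma without the block, with 2 of the 9 members and 6.1% of all genes at an unadjusted p under 0.05. Both shJmjd1c#4 arrays lay below both shJmjd1c#3 arrays for Egr1 and Myc, 2 of 9 members against 18.2% of all genes, and above them for 0 of 9, against 20.3%. Egr1 had a log2 difference of -0.53 (SE 0.11, 95% interval -0.77 to -0.28, adjusted p = 0.402 by limma). With the replicate block it passed (SE 0.09, adjusted p = 0.0386), as did 0.418% of all genes. In the fit over all probe sets it did not pass with the block (adjusted p = 0.145). Myc differed by -0.45 (SE 0.18, 95% interval -0.86 to -0.03, adjusted p = 0.793 by limma). For Jun the difference was 0.16 on 1417409_at (SE 0.17, 95% interval -0.23 to 0.54) and 0.70 on 1448694_at (SE 0.22, 95% interval 0.20 to 1.20), with adjusted p = 0.921 for each by limma, in the gene fit and in the probe set fit. For Atf3 it was -0.0023 with a 95% interval of -0.51 to 0.51.

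**Figure D3:**
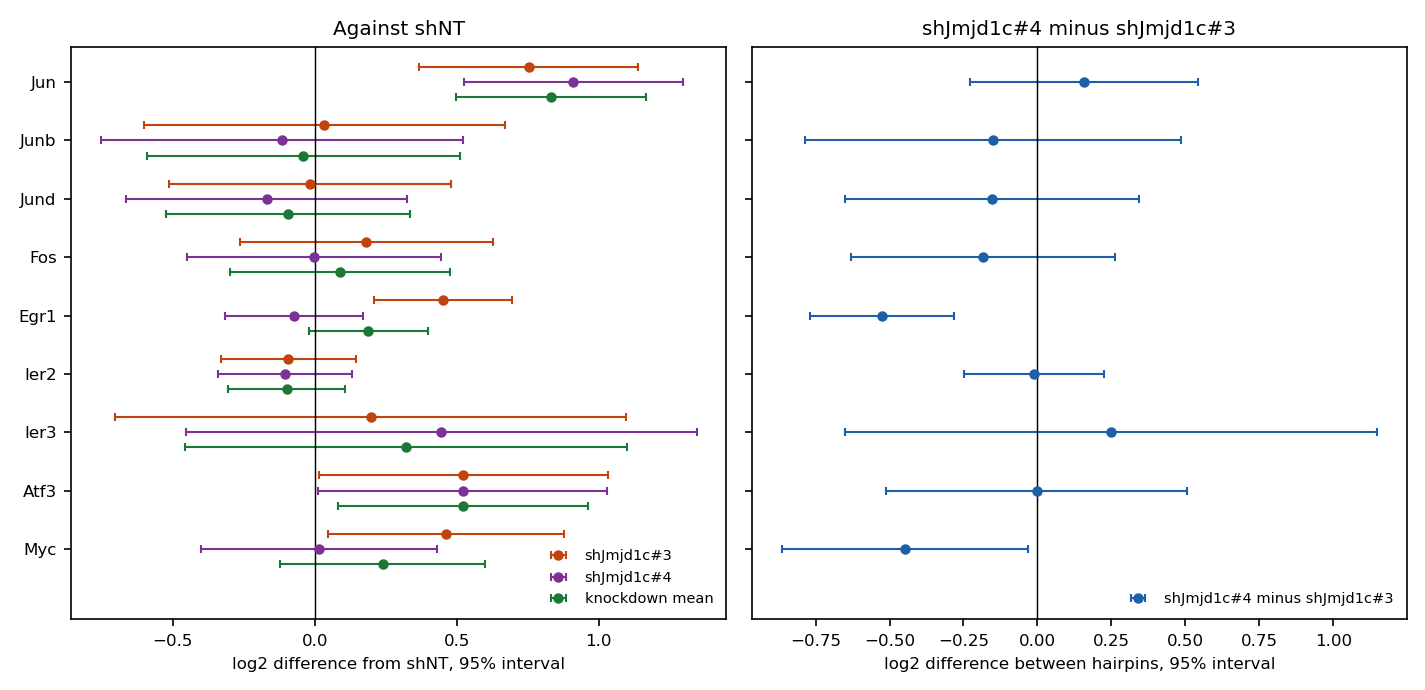
Log2 differences of the 9 tested members with 95% intervals from limma (horizontal axes), on the log2(signal + 16) scale: at left each hairpin and the knockdown mean against shNT, at right shJmjd1c#4 minus shJmjd1c#3. The 3 Jun intervals lie above 0 at left, and Egr1 lies furthest below 0 at right, at -0.53.

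Related genes were read from lists chosen with earlier results of these data known. Among 11 tested genes of the wider AP-1 dimer family, 0 passed in the knockdown mean by limma, with a median log2 difference of 0.11. An unadjusted p under 0.05 was reached by 5, against 12.3% of all genes. Fosl2, which encodes the Fos protein Fra-2, read 172 and 298 in shJmjd1c#3 and 164 and 317 in shJmjd1c#4, against 85.8 and 156 in shNT cells (log2 0.88, SE 0.34, adjusted p = 0.331 by limma, and 0.019 with the replicate block). Jdp2, a Jun partner that represses AP-1 sites, read 394 and 463 in shJmjd1c#3 and 399 and 482 in shJmjd1c#4, against 637 and 730 in shNT cells (log2 -0.64, SE 0.16, adjusted p = 0.152, and 0.015 with the block). All 4 knockdown arrays lay above both controls for Fosl2 and below both for Jdp2. Such separation was seen in 2 of the 11 genes in each direction, against 11.2% and 9.54% of all genes. Maf was at 1.19 (SE 0.36) and Mafk at 0.68 (SE 0.23), neither past the test in the knockdown mean with or without the block. The shNT signals of Maf, 30.6 and 31.2, lie under the filter signal of 40.12, so it was tested only because knockdown arrays were higher. Maf read 29.2 and 79.7 in shJmjd1c#3 and 131 and 190 in shJmjd1c#4, with log2 differences of 0.49 and 1.89.

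Of 32 other immediate early genes tested, 0 passed by limma, 14 had an unadjusted p under 0.05, and the median was 0.25. Over all genes 12.3% had such a p. In 9 of the 32 every knockdown array was higher than both controls, and in 4 lower, against 11.2% and 9.54% of all genes. Nr4a2, 1 of the 9, had a mean shNT signal of 30.9, under the filter signal of 40.12. It passed the filter only through the knockdown arrays. Of the 35 genes on the array 32 passed the filter, so this median and these counts are no measure of the whole list. With the replicate block 7 were called higher and 2 lower, against 3.33% and 2.26% of all genes. Ccn1, a secreted matrix-associated protein and SRF target, read 1846 and 2244 in shJmjd1c#3 and 1238 and 1384 in shJmjd1c#4, against 875 and 1149 in shNT cells (log2 0.69, SE 0.15, adjusted p = 0.0994 by limma, and 0.00232 with the block). The others with the smallest p were Zfp36l1, an mRNA decay factor, at 0.49 (SE 0.11), Phlda1, an early ERK-responsive gene, at 1.02 (SE 0.26), and Klf2, a naive pluripotency factor as well as an early gene, at -0.68 (SE 0.19). All 3 passed with the block, at adjusted p = 0.00863, 0.00112 and 0.00116, and none without it (0.117 to 0.198).

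Of 17 MAP kinase and SRF regulators tested, 0 passed by limma in the knockdown mean with or without the block. An unadjusted p under 0.05 was seen in 2, against 12.3% of all genes, and the median was -0.14. The smallest p were those of the JNK gene Mapk9 at -0.37 (SE 0.13), of Map2k3 at -0.27 (SE 0.10), a kinase upstream of p38, of Rps6ka5 at -0.31 (SE 0.17), a histone H3 kinase of the early response, and of the p38 gene Mapk14 at -0.17 (SE 0.11). These are RNA levels, and kinase activity was not measured.

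Of 11 tested AP-1 target genes, Cd44 alone passed in the knockdown mean, against 0.725% of all genes. In shJmjd1c#4 alone Cd44 and Dcn passed (adjusted p = 0.0456 for each by limma), against 0.363% of all genes. None passed in shJmjd1c#3 alone, against 0.071%. Cd44, the hyaluronan receptor, read 130 and 116 in shJmjd1c#3 and 230 and 201 in shJmjd1c#4, against 51.6 and 62.1 in shNT cells. In the knockdown mean it was called at a log2 of 1.30 (SE 0.23, adjusted p = 0.0485 by limma). The call was lost without each of the 6 arrays. Dcn, a proteoglycan gene that is also among the feeder fibroblast markers, read 41.4 and 47.1 in shJmjd1c#3 and 106 and 113 in shJmjd1c#4, against 10.9 and 11.7 in shNT cells. Its shNT signals lie under the filter signal of 40.12, so it was tested only because the knockdown arrays were higher, which limits its fitted value of 1.67 in log2 (SE 0.30; by limma the adjusted p was 0.0504, and 0.018 with the block). Mmp9, a matrix protease, was at 1.02 (SE 0.26, adjusted p = 0.159 by limma, and 0.0448 with the block) and the cyclin gene Ccnd1 at 0.24 (SE 0.11, adjusted p = 0.3995). The median of the 11 was 0.24. All knockdown arrays were above both controls in 4 and below both in 0, against 11.2% and 9.54% of all genes. Of the 17 targets on the array 11 passed the filter, and Dcn, 1 of the 4, did so only through the knockdown arrays. This median and this count are therefore no measure of the whole list.

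Cytoskeletal genes known as targets of SRF and its actin-sensing MRTF cofactors, 17 tested, had a median of 0.49. Acta2, smooth muscle actin, rose by a log2 of 2.03 and Tagln, transgelin, by 1.55 (SE 0.22 and 0.25, adjusted p = 0.0117 and 0.0361 by limma). Both tropomyosin genes with the next smallest p, Tpm1 at 0.81 (SE 0.17, adjusted p = 0.101) and Tpm4 at 0.43 (SE 0.10, adjusted p = 0.142), passed with the block only (0.000493 and 0.0146). With the block 8 of 17 were called higher and 0 lower, against 3.33% and 2.26% of all genes. In 11 of the 17 all 4 knockdown arrays lay above both controls and in 0 below, against 11.2% and 9.54% of all genes. All 17 genes of the list were tested. Filip1l, 1 of the 11, had a mean shNT signal of 34.6, under the filter signal of 40.12, and passed the filter only through the knockdown arrays. Without the block 2 of the 17, Acta2 and Tagln, were called higher and 0 lower, against 0.56% and 0.166% of all genes. These calls were not both kept in every fit that left out 1 array.

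In the Myc and Max network, 0 of 11 genes passed by limma and the median was -0.03. An unadjusted p under 0.05 was found in 1 of them, against 12.3% of all genes. Mnt, a Max partner that opposes Myc, was at -0.64 (SE 0.18, adjusted p = 0.197, and 0.0395 with the block), Mga, a Max partner in a repressor complex, at -0.21 (SE 0.10), Mxd4 at 0.42 (SE 0.22) and Mxd1 at 0.51 (SE 0.29). Of 25 Myc target genes 0 passed in the knockdown mean and 3 had an unadjusted p under 0.05, against 12.3% of all genes. The median of the 25 was -0.03. The cyclin gene Ccnd2 was at 1.04 (SE 0.19, adjusted p = 0.051 by limma, and 0.00119 with the block), with 463 and 427 in shJmjd1c#3 and 1172 and 824 in shJmjd1c#4, against 362 and 270 in shNT cells. By hairpin it passed in shJmjd1c#4 (log2 1.60, adjusted p = 0.025 by limma), where 0.363% of all genes passed. It did not pass in shJmjd1c#3 (log2 0.48, adjusted p = 0.525 by limma). Shmt2, Fbl and Npm1, of one-carbon metabolism and the nucleolus, were at -0.26, -0.24 and -0.20.

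Heat shock genes, which like the early genes respond to cell handling, were 10 in number, with 0 past the test by limma and a median of 0.01. Of the 10, 0 had an unadjusted p under 0.05, against 12.3% of all genes. Their 4 smallest p were those of Hsph1 at 0.16 (SE 0.15), Hspb1 at -0.19 (SE 0.21), Hspa1b at 0.12 (SE 0.15) and Hsp90aa1 at -0.08 (SE 0.12). All knockdown arrays were above both controls in 0 of the 10 and below both in 0, against 11.2% and 9.54% of all genes.

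Markers of other cell types were read beside these lists. Of 15 tested feeder fibroblast markers, 1 passed in the knockdown mean, against 0.725% of all genes. This was Col3a1, a collagen gene (fitted log2 2.01, SE 0.30, adjusted p = 0.0336 by limma), with 109 and 190 in shJmjd1c#3 and 171 and 254 in shJmjd1c#4, against 25.6 and 37.6 in shNT cells. The median of the 15 was 0.53; a dim marker could pass the filter through the knockdown arrays alone, so this median is no measure of the whole list. The brightest, Fstl1, a secreted glycoprotein, was at 0.29 (SE 0.11), Col5a1, a fibrillar collagen, at 0.56 (SE 0.18), Col1a2 at 0.87 (SE 0.41) and Pdgfrb, a growth factor receptor, at 0.33 (SE 0.30). The Col3a1 call held without shJmjd1c#3 replicate 1 and was lost without each other array. The shNT signals of Col3a1, like those of Cdx2, lie under the filter signal of 40.12, so Col3a1 was tested only because the knockdown arrays were higher. Of 14 tested markers of differentiated embryonic cells 11 were positive and 3 negative, beside 6554 and 6130 of all 12684 genes. Their median was 0.31, under the same limit, and 1 passed, against 0.725% of all genes. That 1 was Cdx2, a trophoblast and gut factor, which read 90.6 and 209 in shJmjd1c#3 and 104 and 120 in shJmjd1c#4, against 18.8 and 2.43 in shNT cells (fitted log2 2.47, SE 0.40, adjusted p = 0.0361 by limma). It was tested only because the knockdown arrays were higher. The keratin genes Krt8 and Krt18 were at 0.49 (SE 0.37) and 0.43 (SE 0.26), and passed with the block only (adjusted p = 0.0438 and 0.0311 by limma), and Neurod1 was at 0.36 (SE 0.37). Tubb3, a neuronal tubulin gene named after its values were seen, lay below both controls on all 4 arrays of the knockdown cells, at a log2 of -0.54 (SE 0.22), and did not pass (adjusted p = 0.356 by limma). The Cdx2 call held without shJmjd1c#3 replicate 1 or shNT replicate 1 and was lost without each other array. Of 12 pluripotency markers 0 passed by limma and 4 had an unadjusted p under 0.05, against 12.3% of all genes. With the block 5 were lower, against 2.26% of all genes. These were Esrrb at -0.77 (SE 0.22), Tfcp2l1 at -0.80 (SE 0.34), Klf4 at -0.55 (SE 0.13), Nanog at -0.40 (SE 0.18) and Sox2 at -0.33 (SE 0.09), with block adjusted p of 0.000586, 0.000816, 0.00547, 0.0151 and 0.0131 by limma; the first 4 were named after their values were seen. Pou5f1 was at -0.04 (SE 0.12), Zfp42 at -0.18 (SE 0.13) and Tdgf1 at -0.19 (SE 0.10). Of the 12, 10 were negative and 2 positive. The positive ones, named for their sign, were Lin28a at 0.25 (SE 0.15) and Utf1 at 0.29 (SE 0.26). The part of these marker differences in the Jun result was not tested.

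**Figure D4:**
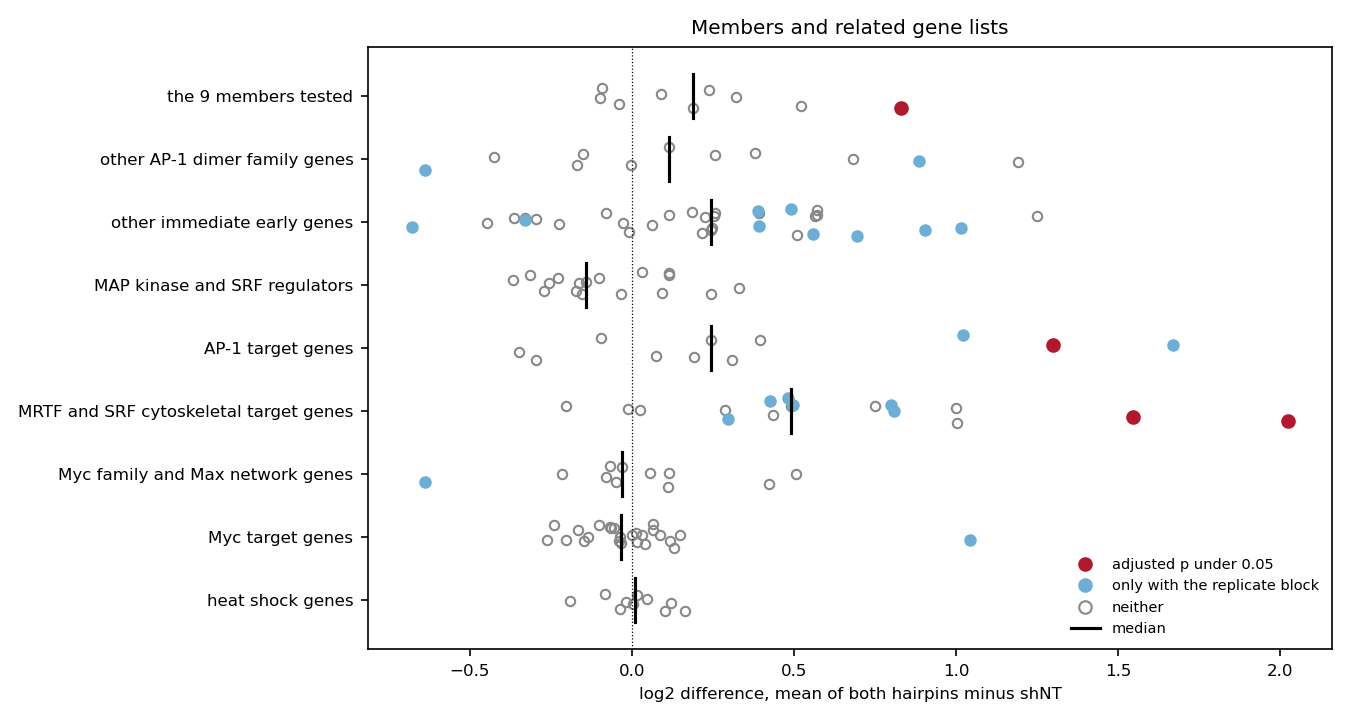
Log2 difference of each tested gene in the knockdown mean against shNT (horizontal axis) for the 9 members and 8 related lists; black bars are medians, red points passed limma's test, blue points passed it with the replicate block alone. The cytoskeletal SRF targets have the median furthest to the right, at 0.49, and the heat shock genes the median closest to 0, at 0.01.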

How the data were processed

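RNA from 6 cultures (6 ug total RNA each) was hybridized to 1 array per sample. The deposited values are linear signal intensity per probe set, and the submitters' processing notes name MAS5 without a version. With the outer values trimmed, leaving 96%, each array averaged 500.003, so arrays had been scaled and no normalization was added. The array holds 45101 probe sets, 64 of them controls; 34945 have 1 gene symbol in the platform annotation, 932 several and 9160 none, and probe sets of the first kind alone were given a gene. All 10 members matched, and 0 symbols changed through the Entrez ID.

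Signals were transformed to log2(signal + 16), which understates the change of dim genes. For each gene the probe set with the highest mean was kept, and 12684 genes at or above the 40th percentile (a signal of 40.12) were tested. The 3 groups' means were fitted to 6 arrays in limma 3.58.1 (R 4.3.3) with an intensity trend (residual df 3, prior df 5.96). Tests were 2-sided, adjusted by Benjamini-Hochberg over all genes tested, with a threshold of 0.05. A second fit took all 45037 probe sets with no filter. Signals carry SDs and log2 values limma's standard errors. On simulated data the knockdown mean fit over 12684 genes recovered 34% of genes changed 1.5-fold and 75.2% changed 2-fold.

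The labels call samples of a group biological replicates. The p-values set a group difference against the spread between these samples, which limma drew toward the intensity trend over all genes tested. Replicate numbers are from the titles. Deviations of same-numbered arrays correlated at 0.223 to 0.302 in the 3 pairs of groups, so the numbers were taken to pair samples; the labels speak of independent duplicates and name no shared day, so this is an inference from the data; the fit with this replicate block (residual df 2, prior df 9.34) is given where it changes a call. The members and lists were chosen with earlier results of these data known. From each related list the text names genes past the threshold, filled up to 4 by smallest p, and from marker lists the brightest and those past it. Alternatives changed the pseudocount, filter, normalization, probe set rule, trend, block, grouping and arrays. Promoter sequences are RefSeq's.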

Additional observations from a re-analysis of the deposited data

Results flagged for a closer look

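Egr1 differed between the hairpins: its log2 difference, shJmjd1c#4 minus shJmjd1c#3, was -0.53 (SE 0.11), from signals of 4755 and 4457 in shJmjd1c#4 and 6688 and 6575 in shJmjd1c#3. Tested with the replicate block, this difference passed (adjusted p = 0.0386 by limma) and without the block it did not (adjusted p = 0.402).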

How the results depend on the processing

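Without the block, 1 member passed in the knockdown mean, and 1 passed with a 60th percentile filter, a pseudocount of 64, the mean of probe sets, the replicate block or both hairpins as 1 group. The number was 0 without a filter, with a pseudocount of 1, quantile normalization, median centring, no _s_at, _x_at or _a_at probe sets, or no intensity trend, and 0 to 0 without each array. In shJmjd1c#3 it was 0, and 2 with the block; in shJmjd1c#4 it was 0, and 1 with the block or the mean of probe sets; between hairpins it was 0, and 1 with the block. Of the 13 member probe sets 0 passed, and 2 with the block. The cause of these changes was not tested. Genes of the related lists past the test numbered 5 of 173 (these alternatives were chosen after seeing the data), 3 with a pseudocount of 1, 1 with no filter, 2 with a 60th percentile filter, 3 with median centring, 0 with the mean of probe sets, 2 without the named probe set types, 0 without a trend and 33 with the block, and 1 to 4 without 1 array. Over all genes the 92 calls in the knockdown mean became 36 with no filter, 34 with the mean of probe sets, 50 without those probe set types, 0 without a trend and 710 with the block, and 4 to 43 without 1 array. The 9 calls in shJmjd1c#3 became 0 with a 60th percentile filter, no filter, a pseudocount of 1, the mean of probe sets or no trend, 435 with the block and 0 to 1 without 1 array. The 46 in shJmjd1c#4 became 21 with no filter, 27 with the mean of probe sets, 22 without those probe set types, 6 without a trend, 622 with the block and 3 to 39 without 1 array; between hairpins 0 became 53 with the block.

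Signs turned in members close to 0: Jund with the mean of probe sets (0.019 in the knockdown mean, 0.053 in shJmjd1c#4), Junb in shJmjd1c#3 with quantile normalization (-0.0025) and median centring (-0.0060), Fos in shJmjd1c#4 with quantile normalization (0.023) and Myc in shJmjd1c#4 with median centring (-0.094). Leaving out 1 array gave, in the knockdown mean, -0.34 to 0.26 for Junb, -0.46 to 0.28 for Jund, -0.14 to 0.32 for Fos and -0.41 to 1.06 for Ier3. In shJmjd1c#3 it gave -0.26 to 0.33, -0.39 to 0.36, -0.047 to 0.41 and -0.54 to 0.93 for these 4 genes, and in shJmjd1c#4 -0.41 to 0.18, -0.54 to 0.20, -0.23 to 0.23 and -0.29 to 1.18, with -0.17 to 0.20 for Myc. Jun was positive in all alternatives run. The replicate block changed no call of a member other than those given in the text. With 2 arrays a group, changes under 2-fold were often missed on simulated data.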
